A study of Rattus norvegicus with 6 samples.

Results

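The snoRNAs carried in the introns of Gas5 (growth arrest-specific 5) were examined in small RNA libraries of 6 clonal rat INS-1 lines. Rows were chosen by symbol, as Snord44, Snord47 or Snord74 to Snord81, and this found 3 of the 32883 annotated genes: SNORD81 (ENSRNOG00000052013), SNORD79 (ENSRNOG00000040595) and Snord78 (ENSRNOG00000055990). The other 7 symbols head no row in the table used. The study's own list of abundant snoRNAs, however, gives Gas5 snoRNA names to 5 further rows that stand under clone or mouse names, and these were kept apart from the 3 members. They are Snord74 (Gm26224), Snord75 (AC113837.4), Snord44 (Gm23212), Snord47 (AC113837.6) and Snord77 (AC113837.8). Because that list holds only well-expressed snoRNAs of these same samples, the 5 rows are abundant by construction.

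INS-1(832/13)::mCherry cells derive from a rat insulinoma, serve as a model of the β-cell and carry an insulin C-peptide-mCherry transgene. All 6 lines were grown at 7.5 mM glucose and all lack the Prader-Willi syndrome (PWS) domain on the silent maternal allele. The 3 control lines (5-9, 2 and 16) keep the active paternal allele, and the 3 PWS lines (3, 19-1 and 19-4) lack it as well. Every line is a single clone descended from line 5-9, lines 2 and 16 after an EGFP control vector, and lines 19-1 and 19-4 are subclones of 1 edited line, so the 3 PWS lines stand for 2 paternal deletion events. There was 1 library per line, so spread between libraries of a group is spread between clones. The limma p-values and intervals below rest on each gene's own spread drawn towards a trend over all genes tested.

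Gas5 is a non-coding host gene. Its spliced exons form a short-lived RNA that is removed by nonsense-mediated decay when ribosomes reach its early stop codons, whereas its introns release C/D box snoRNAs. Each such snoRNA binds fibrillarin and its partner proteins and, with few exceptions, guides 2′-O-methylation of ribosomal RNA by base pairing next to its D or D′ box. The intronic snoRNAs of a host thus come from 1 primary transcript and are each trimmed out of their own intron. Gas5 belongs to the 5′ terminal oligopyrimidine genes, whose RNAs respond to growth state and to inhibition of translation.

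In the RefSeq table for assembly GRCr8, 9 snoRNA genes lie within Gas5, with lengths from 61 to 85 bases. From the start of the host, Snord78 is number 5 and Snord81 is number 9, the last. These were the 2 members found there by symbol. The table does not list SNORD79 under its name, so its place in Gas5 rests on its symbol alone. No row of the count table carries the symbol Gas5, and the host transcript itself was not analysed here.

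The promoter of Gas5 is shown because the intronic products of Gas5 come from transcripts that start there. For SNORD79 this rests on its symbol alone. The sequence is from RefSeq (GRCr8, chr13:75836713-75837012, plus strand) and covers 250 bases before to 50 bases after the annotated start. Capitals mark TGACGTCA, the palindromic cAMP response element letters bound by CREB and ATF proteins.
Gas5 promoter: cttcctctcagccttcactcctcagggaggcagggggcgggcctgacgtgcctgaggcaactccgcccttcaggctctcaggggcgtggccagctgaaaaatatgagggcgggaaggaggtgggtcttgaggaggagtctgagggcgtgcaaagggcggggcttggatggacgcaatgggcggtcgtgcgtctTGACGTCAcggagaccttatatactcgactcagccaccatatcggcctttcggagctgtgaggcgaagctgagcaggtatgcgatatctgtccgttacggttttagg
The capitalised letters begin 57 bases before the annotated start. On either strand, TGACGTCA was found in 1.83% of the 33469 rat promoters of the same 300-base length. The letters TATATA, which do not overlap the capitals, begin 40 bases before the start and occur in 6.15% of promoters. The GC box letters GGGCGG were matched at 5 places on either strand, and 33.1% of promoters hold at least 1 such match. These are matches of letters, not measured binding sites.

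Library depth ranged from 7373691 to 16480475 recovered reads, and values are normalized reads, that is reads divided by 1 size factor per library. The labels held for the deletion, since the SNORD116 rows summed to between 5557 and 8804 normalized reads in the controls and between 1.78 and 3.96 in PWS lines. The β-cell miRNA Mir375 ranged from 558022 to 833397. Of 7 miRNAs listed for other cell types, 4 had a row under the listed symbol, and their sum ranged from 74.9 to 107.3 in control lines and from 78.8 to 123.9 in PWS lines. Nearly all of this sum came from Mir142 of blood cells, at 43.1 to 75.1, and Mir143 of smooth muscle and other mesenchymal cells, at 13.1 to 48.8. Mir145, likewise of smooth muscle, was at 0 in every line and Mir206 of skeletal muscle was at most 2.61. Whether cells of other types contributed to the differences below was not tested. In bulk RNA, fewer expressing cells and less RNA per cell cannot be told apart.

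The first comparison was between the members themselves, whose read levels were very unequal. How well the kit captured each snoRNA was not measured, so folds between snoRNAs are folds of reads and not of molecules in the cell. SNORD81, a guide RNA for 2′-O-methylation of the large-subunit rRNA, stood at 12638, 11700 and 13933 normalized reads in lines 5-9, 2 and 16 of the control group. It stood at 13031, 11901 and 13649 in lines 3, 19-1 and 19-4 of the PWS group. The groups overlapped throughout, and SNORD81 ranked as number 3 of 94 C/D snoRNA genes outside the PWS domain that had a symbol and a mean of at least 5 normalized reads.

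SNORD79, another C/D guide of the large-subunit rRNA, had 532, 506 and 564 normalized reads in control lines 5-9, 2 and 16. It had 777, 762 and 906 in PWS lines 3, 19-1 and 19-4. All 3 PWS lines stood above all 3 control lines, with line 19-4 the highest. SNORD79 ranked as number 44 of the 94 genes.

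Snord78, likewise a C/D snoRNA of the host, had 123, 40.5 and 100 normalized reads in control lines 5-9, 2 and 16. Its levels in PWS lines 3, 19-1 and 19-4 were 90.3, 70.4 and 97.6. The highest and the lowest value were both control lines, so the PWS lines lay inside the control range, and the gene ranked as number 84 of 94. Its level was the least precise, with between 31 and 152 reads per library against 8950 to 21941 for SNORD81 and 387 to 1309 for SNORD79.

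Of the summed normalized reads of the 3 members, SNORD81 made up 95.4% ± 0.247 in the controls and 93.5% ± 0.302 in the PWS group (SD, n = 3 each). SNORD79 made up 4.00% ± 0.134 and 5.92% ± 0.299 (SD, n = 3), and Snord78 0.648% ± 0.300 and 0.623% ± 0.0611 (SD, n = 3). Per annotated base, SNORD81 (77 bases) averaged 166 normalized reads and Snord78 (66 bases) 1.32 over the 6 lines. SNORD81 was thus 126-fold above Snord78 per base, ranging by line from 88.0-fold in line 5-9 to 247-fold in line 2. SNORD79 has no length in the reference table, and SNORD81 was 19.0-fold above it without length correction. The longest and shortest snoRNAs of Gas5 differ 1.39-fold in length, so this fold would be at least 13.6 if divided by any pair of those lengths. Reads were single-end and deduplicated by UMI, and whether they scale with length was not tested. By the same reasoning the 7.75-fold excess of SNORD79 over Snord78 would be at least 5.56.

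**Figure D1:**
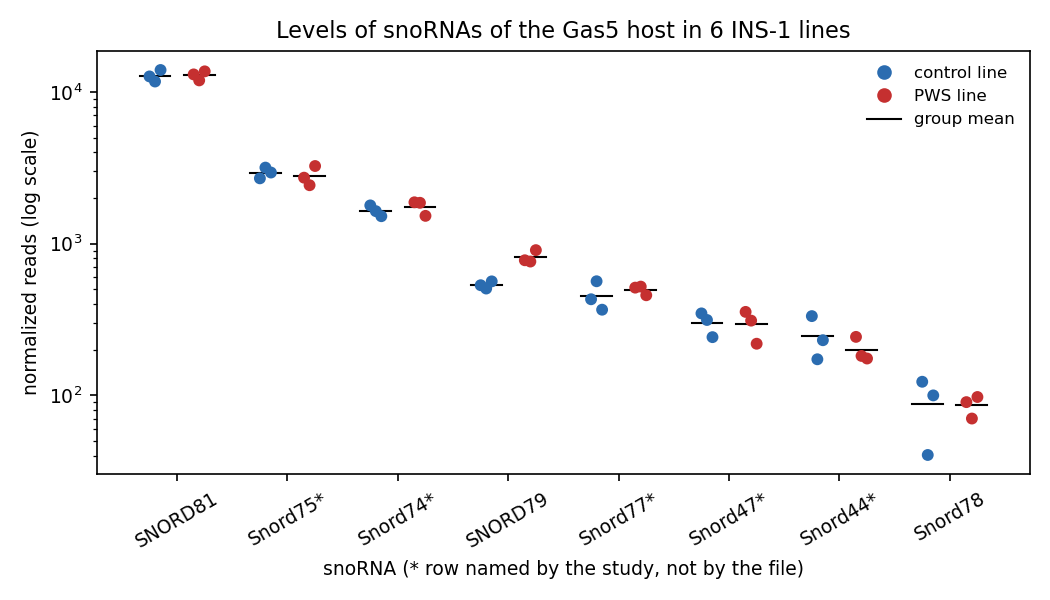
Normalized reads on a log axis for the 3 members and the 5 rows named by the study (asterisks), with 1 point per control line (blue) or PWS line (red) and black bars at the group means. SNORD81 lies between 11700 and 13933 in all 6 lines and Snord78 between 40.5 and 123, and of the 8 snoRNAs only SNORD79 shows 2 groups that do not overlap.

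The rows named by the study filled the space between the members. Snord75 averaged 2866 normalized reads over the 6 lines, Snord74 1699, Snord77 476, Snord47 298 and Snord44 223. Together with the members this gave an order in which SNORD81, Snord75 and Snord74 took the first 3 places and Snord47, Snord44 and Snord78 the last 3 places in 6 of 6 lines. SNORD79 and Snord77 did not separate, since SNORD79 was above Snord77 in 5 lines and below it in line 2. Levels of Snord47 and Snord44 overlapped over the lines too, with a fold between them of 1.04 to 1.82 within a library. This is not clear of the 1.39-fold range of lengths, should reads scale with length. The same limit touches Snord75 over Snord74, whose fold passed it in 5 of 6 lines, and Snord77 over Snord47, likewise in 5. All reads of Snord77 were also counted for the row AC113837.7, which has identical values, so this row is uncertain.

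The second comparison asked whether loss of the paternal PWS domain changed the Gas5 snoRNAs. None of the 3 members was called by limma at an adjusted p under 0.1, against 1.28% of the 4292 genes tested. All genes called were lower in PWS lines. In the paper's own comparison nearly all differential small RNAs belonged to the PWS domain, which the PWS lines lack. By edgeR and DESeq2 on the recovered reads 0 members were called as well. At an unadjusted p under 0.05 limma passed 1 member, SNORD79, higher in PWS lines. Of all genes 5.96% passed at that level, and 2.17% passed while higher in PWS lines.

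The difference in SNORD79 was the largest of the 3. The PWS mean of 815 ± 79.02 was 1.53-fold the control mean of 534 ± 29.1 (SD, n = 3 each). On the log2 scale limma put the difference at 0.61 ± 0.24 (SE), with a 95% interval of 0.10 to 1.12, an unadjusted p of 0.0227 and an adjusted p of 0.831. It was thus not called, although each PWS line exceeded each control line, a pattern seen in 4.87% of all genes tested. The exact 95% counting interval of the highest control line reached up to 606 and that of the lowest PWS line down to 707. These intervals cover counting error only and not the spread between clones. Among the 94 C/D snoRNA genes SNORD79 had the lowest unadjusted p and the second-highest log2 fold change.

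The ratio of SNORD79 to SNORD81 does not depend on how libraries are scaled. SNORD79 reads were 4.21%, 4.32% and 4.05% of SNORD81 reads in control lines 5-9, 2 and 16. They were 5.97%, 6.40% and 6.64% in PWS lines 3, 19-1 and 19-4. The groups did not overlap, and the gap was wider than the spread within either group, 4.19% ± 0.139 against 6.33% ± 0.340 (SD, n = 3). A two-sided exact permutation test gave p = 0.1, the smallest that 3 lines against 3 can give, and 0.2 after Benjamini-Hochberg adjustment over 8 ratios. Of 93 C/D snoRNA genes set against SNORD81 in the same way, 7.53% had every PWS line above every control line.

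Against the rows named by the study, SNORD79 was also proportionally higher in PWS lines. It stood at 18.3% ± 2.04 of Snord75 reads in control and 29.3% ± 1.85 in PWS lines (SD, n = 3), and these groups did not overlap (exact permutation p = 0.1, adjusted p = 0.2). Its ratios to Snord74 and Snord44 likewise separated the groups, with the same p. Of the 94 C/D snoRNA genes, 12.8% had every PWS line above every control line when set against Snord75, 1.06% against Snord74 and 7.45% against Snord44. Against Snord47, Snord77 and Snord78 the groups overlapped, with exact permutation p of 0.2, 0.3 and 0.5. All these ratios share SNORD79, whose own levels already separated the groups, and are not independent of that difference.

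**Figure D2:**
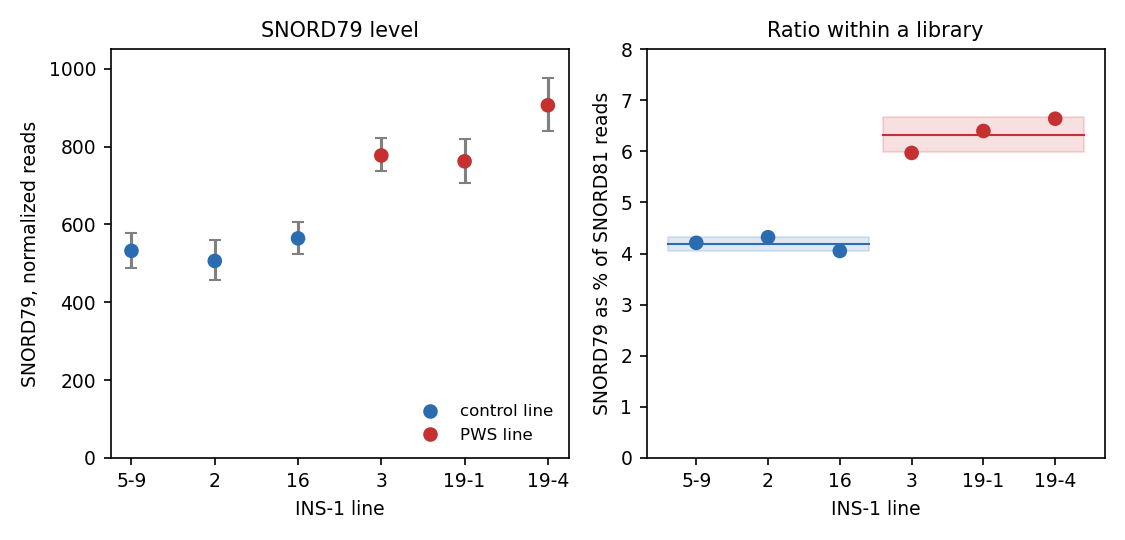
Left, SNORD79 in normalized reads for each line, with exact 95% counting intervals. Right, SNORD79 reads as a percent of SNORD81 reads in the same libraries, with lines at the group means and shading for 1 SD to either side. Control lines (blue) lie between 4.05% and 4.32% and PWS lines (red) between 5.97% and 6.64%.

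SNORD81 hardly differed in mean level, with 12757 ± 1121 in the controls and 12860 ± 886 in the PWS group (SD, n = 3 each). The fitted log2 difference was 0.01 ± 0.20 (SE; limma adjusted p = 0.991). The 95% interval ran from -0.42 to 0.45, which leaves room for levels between 0.747-fold and 1.36-fold of control. The sign of this value was not stable, as it turned negative when libraries were scaled to other C/D snoRNAs, without line 2 and without line 19-4.

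Snord78 averaged 88.0 ± 42.7 in the controls and 86.1 ± 14.1 in the PWS group (SD, n = 3 each). The fitted log2 difference was 0.10 ± 0.38 (SE), with a 95% interval of -0.71 to 0.90 and a limma adjusted p of 0.973. The mean of PWS lines was slightly lower while the mean of the log values was slightly higher, and control line 2 decided this. That line held 31 reads, and its level was 36.3% of the mean of the other control lines. The fitted value became -0.38 without line 2 and 0.41 without line 5-9, neither of them called (limma adjusted p of 0.847 and 0.931).

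None of the 5 study-named rows was called. Their log2 fold changes ran from -0.26 ± 0.30 (SE) for Snord44 to 0.15 ± 0.26 for Snord77, and the limma adjusted p from 0.904 to 0.985. In all 5 the groups overlapped. Over all 8 snoRNAs the median log2 fold change was 0.05, beside 0.0048 over all genes tested, and 5 of the 8 were higher in PWS lines, as were 50.3% of all genes tested.

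The sum of the 3 members was 13379 ± 1178 normalized reads in the controls and 13761 ± 967 in the PWS group (SD, n = 3 each), a 1.03-fold ratio. With the study-named rows it was 18960 ± 899 and 19302 ± 1151 (SD, n = 3), 1.02-fold. SNORD81 dominates both sums, so the 1.53-fold ratio of SNORD79 is not visible in either. The members made up 7.49% ± 0.753 of the C/D snoRNA reads with a symbol outside the PWS domain in the controls and 7.54% ± 0.787 in the PWS group (SD, n = 3 each).

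**Figure D3:**
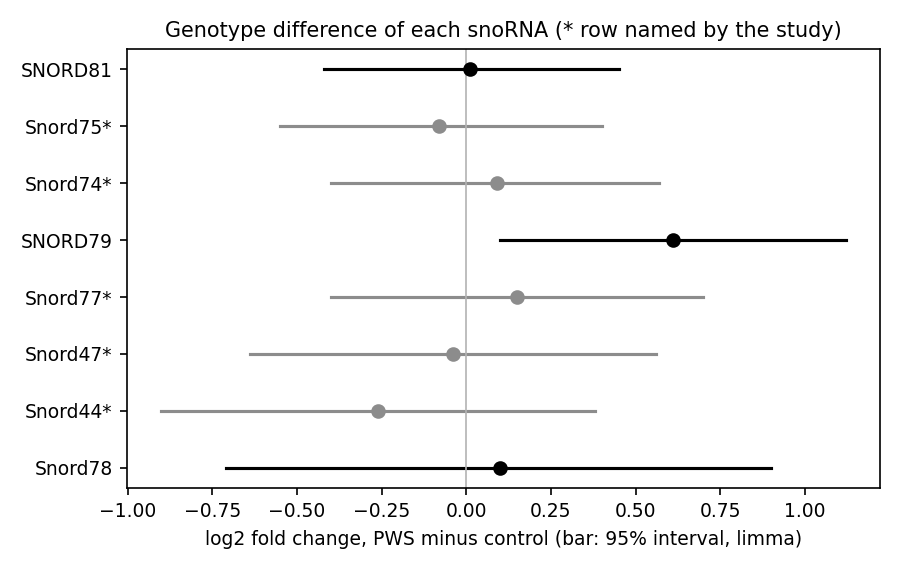
Log2 fold change (PWS minus control) with its 95% limma interval for the 3 members (black) and the 5 rows named by the study (grey, asterisks). The interval of SNORD79 (0.10 to 1.12) is the only one of the 8 that excludes 0, before any adjustment for the 4292 genes tested.

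The third question was whether the products of this host vary together from line to line. Precision differed between members, and the within-group spread was set against the spread that counting alone would give. For SNORD79 the coefficient of variation was 5.45% in control lines, where counting gives 4.35%, and 9.70% in PWS lines, where counting gives 3.51%. For SNORD81 it was 8.79% and 6.89%, with 0.888% and 0.878% from counting. For Snord78 it was 48.5% and 16.3%, with 10.4% and 10.7% from counting. Line 2 with its 31 reads carried the control value of Snord78, since without it the other 2 control lines had a coefficient of variation of 14.4%, with 8.92% from counting.

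Among 87 C/D snoRNA genes with a mean of at least 50, the pooled within-group SD on the log2 scale was 0.11 for SNORD79 and 0.11 for SNORD81. These were the 7th and 8th lowest values, against a median of 0.26. Snord78, at 0.62, was the second highest, number 86 from the lowest. Line 2 carried this value as well, since without that line the SD of Snord78 was 0.23, number 44 of the 87, against a median of 0.23. The limma SE of SNORD79 and SNORD81, 0.24 and 0.20, exceeded their own SD of 0.11. Their limma p-values and intervals thus reflect the variance of other genes as well as that of these clones.

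Relative to its own 6-line mean on the log2 scale, Snord78 stood at 0.57 in line 5-9 and at -1.01 in line 2. SNORD81 deviated by -0.02 and -0.13 in those lines and SNORD79 by -0.31 and -0.38. The median of the other C/D snoRNAs stayed within -0.09 and 0.09 in all lines, so the low Snord78 level of line 2 was not accompanied by a low level of C/D snoRNAs as a class.

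**Figure D4:**
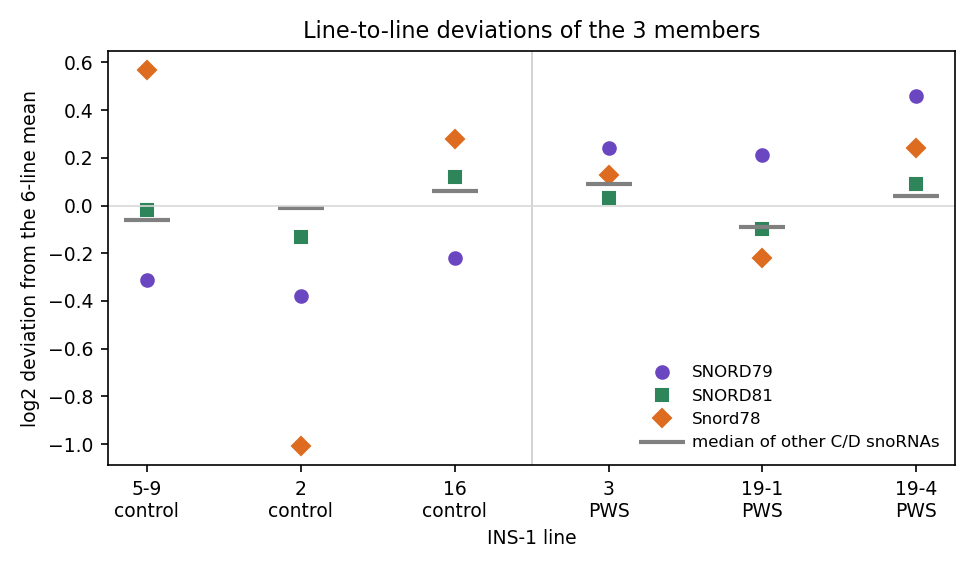
Log2 deviation of each member from its mean over the 6 lines, with grey dashes at the median of the other C/D snoRNAs. SNORD79 is below its mean in the 3 control lines and above it in the 3 PWS lines, SNORD81 stays between -0.13 and 0.12, and Snord78 ranges from -1.01 in line 2 to 0.57 in line 5-9.

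Correlations over the lines are descriptions only, since all lines descend from line 5-9, lines 19-1 and 19-4 are subclones, and the members share library and scaling. Between SNORD81 and Snord78 Pearson's r was 0.72 and Spearman's rho 0.66 over 6 lines (exact permutation p = 0.0944 and 0.175, both not significant after adjustment over 3 pairs, 0.283 and 0.446). Without lines 2 and 16, the farthest from the median of SNORD81, r was 0.48. Between SNORD79 and SNORD81 r was 0.31 and rho 0.54 (exact permutation p = 0.506 and 0.297, adjusted 0.692 and 0.446), and r was -0.46 without lines 2 and 19-4. Between SNORD79 and Snord78 r was 0.25 and rho 0.09 (exact permutation p = 0.692 and 0.919, adjusted 0.692 and 0.919), and r was -0.84 without lines 2 and 19-4. Neither relation of SNORD79 kept its sign over the 4 lines that remained.

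Once the group means were removed, the same 3 pairs had r of 0.84 for SNORD79 with SNORD81, 0.53 for SNORD79 with Snord78 and 0.71 for SNORD81 with Snord78. All 3 values were above 0. With the 5 study-named rows added, the pairs were mixed in sign. Over the 28 pairs of all 8 snoRNAs the median r was -0.04, from -0.82 to 0.88, with 14 pairs above 0, and it was -0.03 with group means removed. The highest r between a member and a study-named row was that of Snord78 with Snord44 (0.70, and 0.80 with group means removed), and the lowest that of SNORD81 with Snord77 (-0.80, and -0.89). With group means removed, SNORD79 had r of 0.62 with Snord75, -0.03 with Snord44, -0.73 with Snord77, -0.85 with Snord74 and -0.87 with Snord47. Among the study-named rows, Snord74 had the highest r with Snord47 (0.88, and 0.97) and the lowest with Snord75 (-0.82, and -0.81).

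Other hosts gave a mixed picture. For 11 snoRNA rows named as products of Snhg1, which is likewise a non-coding oligopyrimidine host, the median r over 55 pairs was -0.08. For 5 rows of the Rpl13a host it was 0.68 over 10 pairs. Among 75 C/D snoRNAs outside these lists the median r over 2775 pairs was 0.08. The pairs share lines and are not independent, so no test of these differences was made. None of the Snhg1 or Rpl13a rows was called either.

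The 5 snoRNAs whose pattern over the 6 lines was most like the sum of the members, among those with a mean of at least 50, were Snord90 (r = 0.85), Scarna10 (0.85), SNORD62 (0.84), Snord92 (0.82) and SNORD25 (0.80). They are the top 4.67% of the snoRNAs searched, over which r ran from -0.83 to 0.85 with a median of 0.24. SNORD81 makes up most of the sum, so these values describe likeness to SNORD81 above all. None of these 5 was called by limma, with the lowest adjusted p at 0.882 for Snord92.

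Proteins that build C/D snoRNPs were looked up as mRNA fragments. Of 10 named, Nop56 and Nop58, the scaffold proteins that bind fibrillarin in the particle, had enough reads to be tested, and neither was called. Nop56 averaged 10.9 ± 1.30 normalized reads in control and 12.9 ± 6.12 in PWS lines (SD, n = 3), and Nop58 7.38 ± 2.44 and 10.7 ± 4.35. Of 4 genes listed for decay or binding of the Gas5 RNA, the decay factors Upf1 and Smg1 were tested and neither was called, with limma adjusted p of 0.887 and 0.946. All 4 averaged at most 11.9 normalized reads over the 6 lines, a depth at which small differences were not detectable.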

How the data were processed

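Small RNA (under 200 nt) of 3 control and 3 PWS lines was sequenced from a UMI miRNA kit with widened size selection. Per the labels and methods, the authors used UMI-tools 1.0.0, cutadapt 1.18, Bowtie2 2.3.4.2 on Rnor_6.0 with a custom annotation, and HTSeq 0.11.2. featureCounts is also named, with no role given. The values the authors deposited are a signal, reads per gene divided by a DESeq2 size factor per library. Every value was a whole multiple of the smallest of its column (100% within 0.001), so reads could be recovered. The table counted with the HTSeq option "all" was used, and the one counted with "none" was an alternative. All reads of the 3 members were identical in both. Deposited fold changes and p-values were not used. The kit and alignment do not show whether a read is a whole snoRNA or a fragment.

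limma 3.58.1 (R 4.3.3, trend) was run on log2(normalized reads + 1) over the 4292 genes with a mean of at least 5, with genotype as the sole term, Benjamini-Hochberg adjustment and calls at an adjusted p under 0.1. The log2 fold changes understate changes of low genes. edgeR 4.0.16 quasi-likelihood and DESeq2 1.42.0 on recovered reads called 59 and 58 genes in all, against 55 by limma. Counting intervals are exact 95% Poisson intervals and cover counting error only. Members, lists and tests were chosen with earlier results of these data known. Named were all members, the study-named rows, the 5 most similar snoRNAs, and lists as counts. Rows of identical value were counted once within lists.

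The labels state no pairing of lines by replicate number. With group means removed, lines of the same number correlated at 0.414, 0.218 and -0.0574 over 1087 genes. Lines of different number were not compared, so these values do not settle whether the numbers pair the lines. Reference names, lengths and the promoter came from RefSeq tables (GRCr8). The build differs from that of the reads, so no coordinates of snoRNAs are given, and no snoRNA sequences are shown.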

Additional observations from a re-analysis of the deposited data

How the results depend on the processing

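No member was called under any of the 20 alternatives, and SNORD79 was higher in PWS lines in all 20, with a log2 fold change of 0.53 to 0.67, an unadjusted p of 0.0103 to 0.0680 and an adjusted p of 0.413 to 1. Its unadjusted p missed 0.05 in 2 of them: 0.068 with scaling to other C/D snoRNAs and 0.056 without control line 5-9. With the replicate number as a block 0 members were called, and the log2 fold change of SNORD79 was 0.606, so this block changed no call. Small differences changed sign. SNORD81 was at -0.018 with scaling to other C/D snoRNAs and ranged from -0.048 to 0.078 with 1 line left out. Snord78 was at -0.011 in edgeR and -0.042 in DESeq2, and ranged from -0.378 to 0.412. Snord47 was at 0.022 with upper-quartile scaling and 0.042 with lines 19-1 and 19-4 averaged, and ranged from -0.190 to 0.158. Snord75 ranged from -0.189 to 0.021. The cause was not tested. The members' sum and the fold between highest and lowest member moved by less than 1 SD between lines in all 12 alternatives each. Leaving out 1 line can hardly move them by that much, and rescaling largely cancels in the fold, so these counts are a weak check. The fold was 147, and it went from 126 per annotated length to 161 without control line 5-9. The median r of the 3 pairs was 0.31. It was 0.71 with group means removed and, in an alternative chosen after seeing the data, -0.04 with the study-named rows, and ranged from -0.03 without control line 2 to 0.65 without control line 16. Snord78 had the fewest reads of the members, with 31 to 152 per library.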
